A study of Mus musculus with 6 samples.

Results

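The 42 genes of mitosis and cytokinesis described here were chosen by function: mitotic kinases, cyclins, spindle checkpoint proteins, kinesins, condensin subunits and proteins of the cleavage furrow. Each was matched by its symbol to 1 Ensembl identifier, so that 42 of the 48709 genes in the count table are covered, and all 42 had enough reads to be tested, with at least 470 reads for any of them in any library. RNA-Seq was performed on G1E-ER4 cells, 1 mouse line that grows as red cell precursors, was made from embryonic stem cells, and holds GATA1 in a form that tamoxifen switches on because an estrogen receptor domain is joined to it. There were 2 groups of 3 libraries. The cells received either the CHD4-APR peptide, which copies an aggregation-prone region (APR) of the chromatin remodeler CHD4, or the CTRL peptide, a run of alanines, and both peptides carried the Tat sequence that brings them into cells. Each peptide was given at 10 μM, tamoxifen was added after 2 h in both groups to move GATA1 into the nucleus, and cells were collected 28 h later. Tamoxifen is given as 100 nM in the growth notes and as 100 μM in the design text. Nothing states whether the 3 libraries of a group came from separate cultures, so the p-values measure the spread between these libraries, which may be technical.

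A cell that enters mitosis switches on CDK1 through cyclins A and B, packs its chromosomes with condensin, and builds a spindle with motor proteins of the kinesin family. The spindle checkpoint holds back anaphase until every kinetochore, the attachment site on a chromosome, is bound to microtubules, after which the anaphase-promoting complex releases the sister chromatids. A furrow then closes between the daughter cells in cytokinesis. The genes of this program are mostly transcribed late in the cell cycle, and their promoters are known for a short element called the cell cycle genes homology region (CHR) and for CCAAT boxes. In red cell formation GATA1 slows division while the cells mature, so that the level of these mRNAs is often read as a measure of proliferation. In bulk RNA, a change in the fraction of cells that are dividing and a change in the mRNA per dividing cell cannot be told apart.

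The promoters of the 42 genes share sequence that the choice by function did not use. RefSeq promoter windows, from 250 bases before to 50 bases after a transcription start in GRCm38.p6, were found for 35 of the 42 genes, as 38 windows. The CHR letters TTTGAA or TTTAAA, searched on both strands (TTTAAA reads the same on each), were present in 31 of the 38 windows (81.6%), against 27.6% of all 32851 windows. CCAAT, on either strand, was present in 27 (71.1%), against 37.4% of all windows, and both kinds together in 26 (68.4%), against 10.7%. The windows of the pair of genes that rose most (Ect2 and Aspm, described with their values further on) and of 2 genes that fell (Plk1 and Birc5) are printed 5′ to 3′ on the strand of the gene, with these letters in capitals (TTCAAA and ATTGG are TTTGAA and CCAAT on the other strand), because they show CHR letters in front of genes that moved in opposite directions. Ect2, Aspm and Plk1 hold CCAAT as well, and Birc5 holds TTTAAA alone. They lie at chr3:27153829-27154128 on the minus strand (Ect2), and at chr1:139454523-139454822 (Aspm), chr7:122159185-122159484 (Plk1) and chr11:117848987-117849286 (Birc5) on the plus strand.
Ect2: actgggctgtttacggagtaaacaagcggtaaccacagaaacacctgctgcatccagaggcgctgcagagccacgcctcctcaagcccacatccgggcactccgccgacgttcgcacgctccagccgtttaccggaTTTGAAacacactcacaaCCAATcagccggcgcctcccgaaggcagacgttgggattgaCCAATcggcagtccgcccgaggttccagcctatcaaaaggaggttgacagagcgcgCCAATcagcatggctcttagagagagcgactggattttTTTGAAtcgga
Aspm: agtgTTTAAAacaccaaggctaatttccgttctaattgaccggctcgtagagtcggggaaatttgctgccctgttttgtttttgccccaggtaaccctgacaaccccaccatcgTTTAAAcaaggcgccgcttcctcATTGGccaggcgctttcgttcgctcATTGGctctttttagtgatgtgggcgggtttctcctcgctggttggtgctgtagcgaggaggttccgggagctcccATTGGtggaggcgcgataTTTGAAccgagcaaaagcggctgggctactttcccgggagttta
Plk1: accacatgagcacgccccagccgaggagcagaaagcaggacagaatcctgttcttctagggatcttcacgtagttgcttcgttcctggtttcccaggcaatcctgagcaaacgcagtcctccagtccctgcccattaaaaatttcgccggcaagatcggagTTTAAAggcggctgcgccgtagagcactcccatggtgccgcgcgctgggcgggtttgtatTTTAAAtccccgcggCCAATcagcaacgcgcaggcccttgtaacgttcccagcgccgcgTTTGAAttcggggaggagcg
Birc5: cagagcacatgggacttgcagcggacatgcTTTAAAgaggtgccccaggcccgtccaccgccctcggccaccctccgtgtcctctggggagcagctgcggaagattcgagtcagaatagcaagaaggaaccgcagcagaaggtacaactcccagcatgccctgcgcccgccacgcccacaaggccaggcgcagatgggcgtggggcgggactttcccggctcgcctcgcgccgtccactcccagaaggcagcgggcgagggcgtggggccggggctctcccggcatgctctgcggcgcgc

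Libraries held between 41687482 and 49784177 counts, and 12722 genes passed edgeR's default filter on low counts. Values are given as normalized CPM, the usual per-million unit after TMM scaling, and a gene was called changed at a false discovery rate (FDR) under 0.05 in edgeR's quasi-likelihood test, adjusted over all 12722 genes. Of 12 erythroid marker genes 11 were found, with summed levels between 71185 and 76503 CPM in the CTRL libraries and between 60653 and 64727 CPM in the CHD4-APR libraries, where 5 markers were lower and 2 were higher (17.8% and 20.4% of all genes). With the length and GC correction described further on, 2 were lower and 2 higher (14.2% and 12.7% of all genes). Markers of other lineages were near 0: 6 megakaryocyte genes summed to at most 12.4 CPM, with Gp1bb, Ppbp and Vwf at 0, and 1 of the 2 tested, Gp9, was lower. The 7 myeloid genes summed to at most 9.80 CPM, with Adgre1 and Mpo at 0, and 1 of the 2 tested, Cd68, was lower. The 6 mast cell and the 6 lymphoid genes summed to at most 0.604 and 0.614 CPM, and none of the 2 tested was called.

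Comparison of the peptides asked how mitotic mRNAs responded when the CHD4-APR peptide was present during erythroid differentiation. The 42 genes did not move together. With the CHD4-APR peptide 12 were higher, led by Ect2, Aspm, Kif18a and Smc2, 5 were lower, led by Plk1, Cdc25c and Birc5, and 25 were not called. The 17 called genes make up 40.5% of the 42, close to the 38.3% of all genes tested that were called. In the single directions, 28.6% of the 42 were higher and 11.9% lower, against 20.4% and 17.8% of all genes. The median log2 fold change of the 42 was 0.062, against -0.012 for all genes tested, and a single gene, Ect2, passed 1.5-fold by log2 fold change with an FDR under 0.05, as did 4.23% of all genes (3.48% in the same direction, higher). In 16 of the 42 (38.1%) the 3 CHD4-APR libraries did not overlap the CTRL libraries, all above in 9 and all below in 7, against 49.9% of all genes tested. Leaving out CTRL replicate 1 gave a median of 0.012, and leaving out CTRL replicate 2 gave 0.11. In the other group the median was 0.12 when replicate 1 was left out, 0.040 when replicate 2 was and 0.024 when replicate 3 was. DESeq2 called 12 of the genes higher and 5 lower as well (19.8% and 16.7% of all genes), and limma-voom 12 and 6 (20.3% and 17.7%). At an FDR under 0.01, 11 of the 42 were called (25.5% of all genes).

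**Figure D1:**
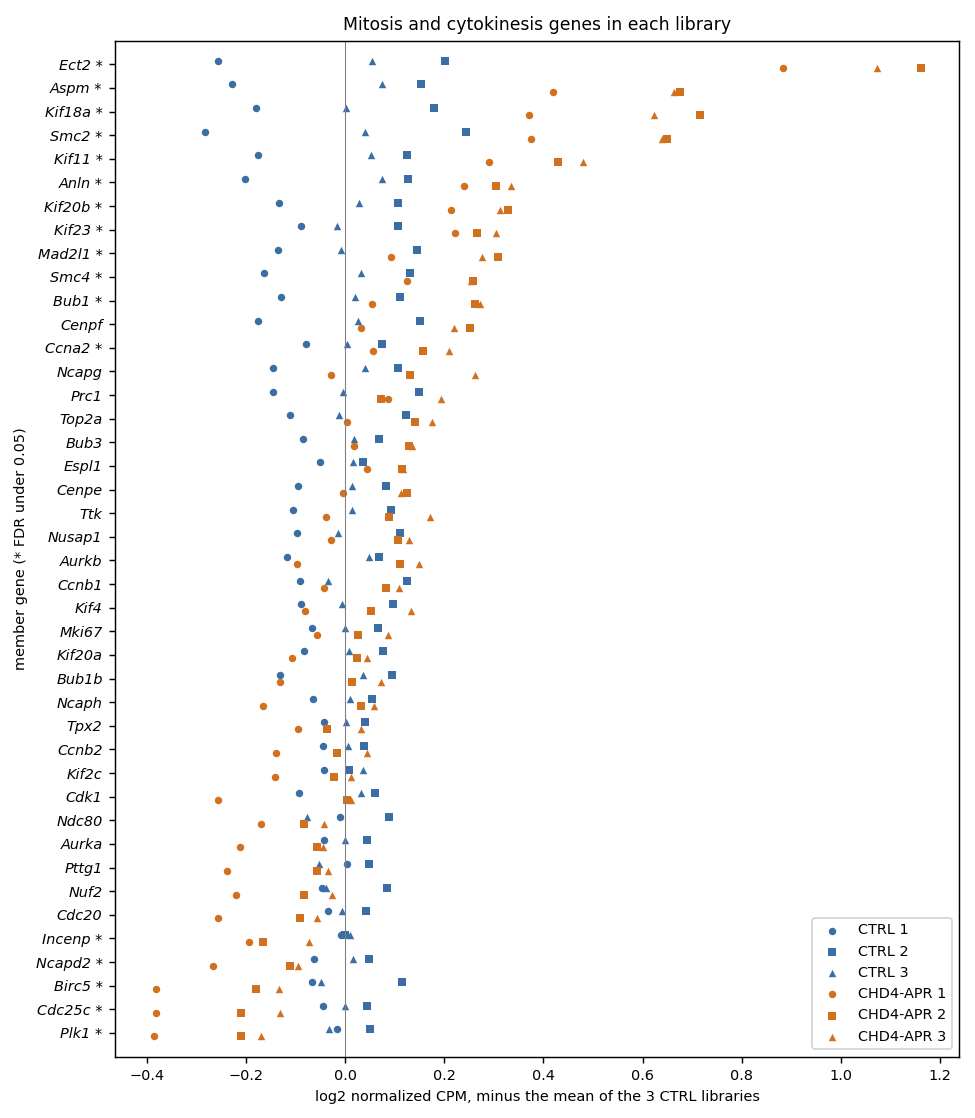
Log2 normalized CPM of the 42 genes in each library, relative to the mean of the 3 CTRL libraries, on the x axis, with genes on the y axis in order of fold change and CTRL (blue) and CHD4-APR (orange) replicates as circles, squares and triangles. The CHD4-APR points stand clear to the right for the upper 8 genes and to the left for the lowest 5, and replicate 1 of each group is the leftmost of its group in nearly every row.

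Of the 12 genes that were higher, 4 act in cytokinesis. These were 4 of 6 cytokinesis genes, with 0 lower and a median log2 fold change of 0.27, against 20.4% of all genes higher. After the correction for length and GC content described further on, 1 of the 6 was higher, against 12.7% of all genes, and the median was 0.031. Ect2 (ENSMUSG00000027699, chromosome 3 from 27097222 to 27153878 in GRCm38) encodes the exchange factor that activates RhoA at the division site. Its level was 21.2, 29.2 and 26.4 CPM in the CTRL libraries and 46.8, 56.8 and 53.4 CPM in the CHD4-APR libraries. Every CHD4-APR library lay well above every CTRL library. The mean rose from 25.6 ± 4.02 to 52.3 ± 5.07 CPM (SD, n = 3), or by 1.03 on the log2 scale with a standard error of 0.092 (FDR 1.17e-06 by edgeR). No exon of another annotated gene overlapped those of Ect2. Per kilobase of exon Ect2 was the second lowest of the 42 genes in the CTRL libraries, at 4.75 CPM per kb, and reached 9.71 CPM per kb with the CHD4-APR peptide. Kif23, the motor of the centralspindlin complex that recruits ECT2, had 125, 143 and 131 CPM in the CTRL libraries and 155, 160 and 164 CPM in the CHD4-APR libraries. These did not overlap, and the rise was small (log2 fold change 0.26, standard error 0.051, FDR 7.62e-04 by edgeR). Anln, which encodes anillin, a scaffold of the contractile ring, had 61.6, 77.3 and 74.5 CPM against 83.6, 87.3 and 89.2 CPM (log2 fold change 0.29, standard error 0.067, FDR 0.00321 by edgeR). Kif20b, a kinesin of late cytokinesis, had 31.3, 37.0 and 35.1 CPM against 39.9, 43.1 and 42.7 CPM (log2 fold change 0.28, standard error 0.064, FDR 0.00263 by edgeR). In both genes the lowest CHD4-APR library was above the highest CTRL library. Prc1, which bundles the microtubules of the central spindle, and Kif20a, the kinesin that brings Plk1 to it, were not called, with log2 fold changes of 0.11 (FDR 0.168) and -0.013 (FDR 0.869) by edgeR.

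Among 7 spindle genes Aspm, Kif18a and Kif11 rose, against 20.4% of all genes higher, and the other 4 were not called. Aspm (chromosome 1 from 139454772 to 139494091), a protein of the spindle poles that is known for its part in brain size, had 107, 139 and 132 CPM in the CTRL libraries. In the CHD4-APR libraries it had 168, 200 and 199 CPM, above every CTRL value (log2 fold change 0.58, standard error 0.081, FDR 4.50e-05 by edgeR). Kif18a, which damps the movement of chromosomes at the metaphase plate, was the gene with the lowest level, at 11.1, 14.2 and 12.6 CPM with the CTRL peptide and 16.3, 20.6 and 19.4 CPM with the CHD4-APR peptide. The groups did not overlap (log2 fold change 0.57, standard error 0.098, FDR 3.13e-04 by edgeR). Kif11, the motor that pushes the spindle poles apart, had 85.9, 106 and 101 CPM against 119, 131 and 135 CPM, with no overlap (log2 fold change 0.40, standard error 0.067, FDR 2.51e-04 by edgeR). After the correction Aspm and Kif11 were still called higher, against 12.7% of all genes, and Kif18a was not called. Kif2c and Kif4, a microtubule depolymerase and a chromosome-bound motor, had log2 fold changes of -0.050 and 0.035 and were not called. Tpx2 and Nusap1, which support microtubule growth around chromosomes, had log2 fold changes of -0.033 and 0.068 and were not called either.

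Of 7 genes of condensin and chromosome structure 2 were higher and 1 lower (20.4% and 17.8% of all genes), and after the correction 1 was higher and 3 were lower (12.7% and 14.2%). Smc2, an ATPase of the condensin core, had 50.2, 72.2 and 62.7 CPM in the CTRL libraries and 79.1, 95.6 and 95.1 CPM in the CHD4-APR libraries (log2 fold change 0.54, standard error 0.097, FDR 3.97e-04 by edgeR). Its partner ATPase Smc4 had 212, 260 and 242 CPM against 258, 283 and 282 CPM (log2 fold change 0.21, standard error 0.062, FDR 0.0138 by edgeR). Smc2 did not overlap between the groups, whereas the lowest CHD4-APR value of Smc4 fell just under the highest CTRL value. Ncapd2, a regulatory subunit of condensin I, moved the other way, from 376, 406 and 397 CPM to 326, 364 and 368 CPM (log2 fold change -0.16, standard error 0.050, FDR 0.0215 by edgeR). Neither Smc4 (-0.020) nor Ncapd2 (-0.14) was called after the correction. The 2 other subunits of condensin I, Ncapg and Ncaph, were not called, at 0.12 and -0.023 on the log2 scale. Top2a, the topoisomerase that untangles sister chromatids, had 598, 704 and 640 CPM with the CTRL peptide and 647, 712 and 730 CPM with the CHD4-APR peptide. The groups overlapped, and the log2 fold change was 0.10 (FDR 0.169 by edgeR). Mki67, the proliferation antigen that coats mitotic chromosomes, had the highest CPM of the 42 genes, with 1090.0, 1195 and 1142 CPM in the CTRL libraries and 1097, 1163 and 1211 CPM in the CHD4-APR libraries. The groups overlapped almost fully, and the difference of 0.018 on the log2 scale was smaller than its standard error of 0.048 (FDR 0.796 by edgeR). After the correction for length and GC content both Top2a and Mki67 were called lower (-0.15 and -0.19 on the log2 scale).

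Of 7 genes that drive mitotic entry, Plk1 and Cdc25c were lower, Ccna2 was higher and 4 were not called, against 17.8% of all genes lower and 20.4% higher. After the correction for length and GC content Cdc25c was still called (-0.38), whereas Plk1 (-0.10) and Ccna2 (0.074) were not (14.2% of all genes lower and 12.7% higher). Plk1 (chromosome 7 from 122159439 to 122169873), the kinase that promotes entry and spindle formation, had 127, 133 and 126 CPM in the CTRL libraries and 98.4, 111 and 114 CPM in the CHD4-APR libraries. The groups did not overlap, and the fall was the largest of the 42 genes before the correction (log2 fold change -0.25, standard error 0.054, FDR 0.00162 by edgeR). Cdc25c, the phosphatase that removes the inhibitory phosphates of CDK1, had 52.0, 55.3 and 53.6 CPM against 41.1, 46.3 and 49.0 CPM, and its groups did not overlap (log2 fold change -0.24, standard error 0.061, FDR 0.00584 by edgeR). Ccna2, cyclin A, rose slightly, from 282, 313 and 298 CPM to 309, 332 and 344 CPM, with overlap between the groups (log2 fold change 0.14, standard error 0.050, FDR 0.0352 by edgeR). Ccnb1, cyclin B, had 258, 300 and 269 CPM against 267, 291 and 296 CPM. Cdk1 itself had 59.1, 65.7 and 64.4 CPM against 52.7, 63.2 and 63.5 CPM. Both overlapped between the groups and were not called, with log2 fold changes of 0.047 (FDR 0.540) and -0.077 (FDR 0.392) by edgeR, and the same held for Ccnb2 at -0.036. Aurka, the kinase of the spindle poles, had a log2 fold change of -0.10 (FDR 0.122 by edgeR), although its 3 CHD4-APR libraries all lay below the CTRL libraries.

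In the chromosomal passenger complex, which corrects faulty attachments and guides cytokinesis, 2 of 3 genes fell, against 17.8% of all genes. After the correction for length and GC content 1 of the 3 did, against 14.2% of all genes. Birc5, or survivin, had 137, 155 and 139 CPM in the CTRL libraries and 110, 127 and 131 CPM in the CHD4-APR libraries (log2 fold change -0.23, standard error 0.063, FDR 0.00814 by edgeR). Incenp, the scaffold of the complex, had 276, 278 and 279 CPM against 243, 247 and 264 CPM (log2 fold change -0.14, standard error 0.043, FDR 0.0159 by edgeR). Neither gene overlapped between the groups, and Aurkb, the kinase of the complex, was not called (0.056 on the log2 scale). Of 6 genes of the spindle checkpoint 2 rose, against 20.4% of all genes, and 0 did after the correction (12.7% of all genes). Mad2l1, which binds and holds CDC20, had 38.4, 46.6 and 41.98 CPM against 45.0, 52.3 and 51.1 CPM (log2 fold change 0.22, standard error 0.071, FDR 0.0206 by edgeR). Bub1, a kinase of the kinetochore, had 52.6, 62.2 and 58.4 CPM against 59.8, 69.1 and 69.6 CPM (log2 fold change 0.20, standard error 0.067, FDR 0.0291 by edgeR). Both overlapped between the groups. Bub1b, Bub3 and Ttk were not called, and neither was Cdc20, the activator of the anaphase-promoting complex, which lay just outside the threshold at -0.13 on the log2 scale (FDR 0.0521 by edgeR). Of the 4 kinetochore genes (Cenpe, Cenpf, Nuf2 and Ndc80) and the 2 genes of sister separation (Espl1 and Pttg1), 0 were called, against 38.3% of all genes, whereas after the correction all 4 kinetochore genes were lower, against 14.2% of all genes. The 25 genes not called had log2 fold changes between -0.13 and 0.16 with standard errors between 0.045 and 0.072.

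Of the 17 called genes 10 kept their call with each library left out in turn. Mad2l1, Bub1 and Ccna2 lost it without CTRL replicate 1 (0.16, 0.13 and 0.10 on the log2 scale), CTRL replicate 3 (0.22, 0.20 and 0.14), CHD4-APR replicate 2 (0.18, 0.16 and 0.13) or CHD4-APR replicate 3 (0.20, 0.16 and 0.11). Smc4 lost it without CHD4-APR replicate 2 (0.18) and Birc5 without CHD4-APR replicate 1 (-0.16). Ncapd2 lost it without CTRL replicate 2 (-0.13), CTRL replicate 3 (-0.15) or CHD4-APR replicate 1 (-0.10), and Incenp without CTRL replicate 3 (-0.14), CHD4-APR replicate 1 (-0.12) or CHD4-APR replicate 2 (-0.13). As a result 3 genes were called lower when CTRL replicate 3 was left out (14.0% of all genes), and 2 when CHD4-APR replicate 1 was (13.3%). Of the 25 genes not called, 5 passed with at least 1 library left out, among them Top2a without CTRL replicate 2 (0.17). The library kit does not mark the strand, and exons on the opposite strand overlapped those of Ccna2 (Exosc9, by 510 bases), Cdc25c (Gm3550), Plk1 (Gm44985), Kif18a (Mettl15, by 11 bases), Ncapg (Lcorl, by 944 bases), Kif20a (Cdc23, by 1271 bases), Prc1 (Rccd1, by 911 bases), Kif4 (Pdzd11, by 832 bases), Nusap1 (Oip5, by 172 bases) and Cdc20 (Elovl1, by 53 bases), so that reads there cannot be assigned to one gene. Elovl1, beside Cdc20, was at means of 252 CPM with the CTRL peptide and 204 CPM with the CHD4-APR peptide. In the same order Cdc23 was at 67.9 and 67.7, Lcorl at 23.4 and 34.6 and Rccd1 at 11.2 and 12.8 CPM. Pdzd11 was at 91.4 and 83.9 CPM and Exosc9 at 31.7 and 28.5 CPM. Reads of Ccnb1 could be shared with its pseudogene Ccnb1-ps, listed at means of 5.04 CPM with the CTRL peptide and 5.33 CPM with the CHD4-APR peptide.

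Compared per kilobase of exon, the 42 genes spanned a wide range of levels in the CTRL libraries. Ccnb2 was highest at 138 CPM per kb, followed by Mki67 at 114, Cdc20 at 93.0, Tpx2 at 92.3, Ccna2 at 72.9, Top2a at 71.8 and Ccnb1 at 65.4 CPM per kb. Kif18a was lowest at 1.29 CPM per kb, below Ect2 at 4.75, Kif20b at 4.95, Mad2l1 at 5.05 and Ttk at 5.41 CPM per kb. The pair with the lowest level per length, Kif18a and Ect2, were among the 3 with the largest rises. Lengths were those of all annotated exons of a gene joined together, which overstates the length of the mRNA where long isoforms are rare.

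The size and direction of the changes followed the base composition and length of the transcripts, as they did in all genes. Across the 42 genes the log2 fold change had a Spearman correlation of -0.63 with the GC content of the longest transcript and of 0.59 with exonic length, a description over genes measured in the same 6 libraries. Across all genes tested these were -0.46 and 0.41. The 12 genes that rose all had a GC content between 38.2% and 46.3%, with a median exonic length of 7209 bases. The 5 that fell lay between 44.1% and 56.0%, with a median of 4329 bases. When all tested genes were cut into 3 equal bins by GC content, the median log2 fold change was 0.17 in the low bin (up to 46.4%) and -0.14 in the high bin (from 52.7%). The 24 members in the low bin had a median of 0.15, with 12 higher and 1 lower, against 41.1% and 5.47% of all genes in that bin. Likewise, the 5 members in the high bin had a median of -0.14, with 0 higher and 3 lower, against 3.88% and 30.9%. With their median GC content of 45.6% and median exonic length of 5298 bases, against 49.6% and 3688 bases for all genes tested, the 42 genes as a list were poorer in GC and longer than the other genes tested.

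**Figure D2:**
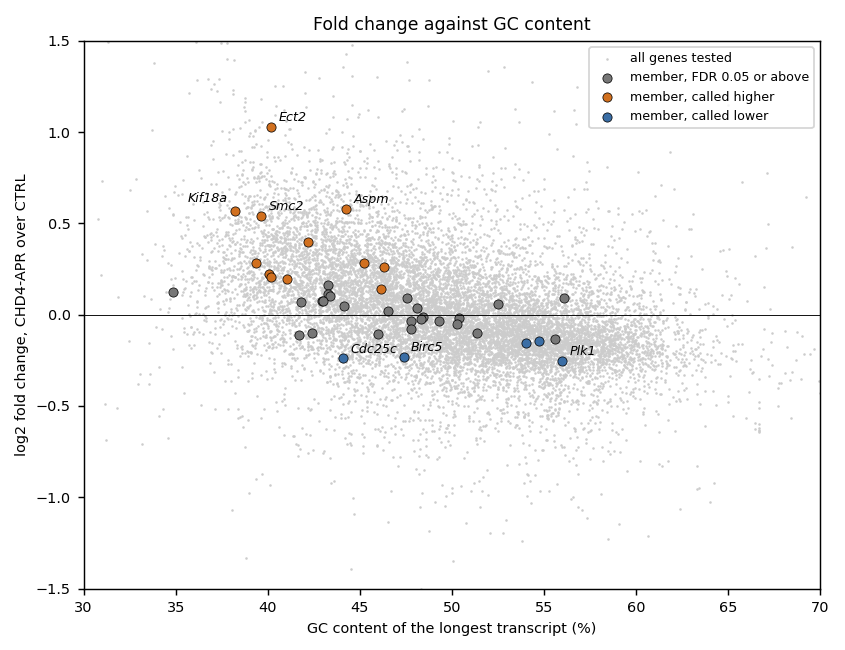
Log2 fold change (y axis, CHD4-APR over CTRL) against the GC content of the longest transcript in percent (x axis), with all genes tested in grey and the 42 genes as circles, orange where called higher, blue where called lower and grey where not called. The genes called higher all lie at a GC content of 46.3% or less, where the grey cloud also lies mostly above 0, and Ect2 is the highest of the 42 at 1.03.

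Each library's trend with length and GC content was then estimated over all genes with both values known (12677) and passed to edgeR as an offset. With this correction 4 of the 42 genes were higher (9.52%, against 12.7% of all genes) and 9 were lower (21.4%, against 14.2%), so that the split turned from 12 and 5. The median log2 fold change turned to -0.048, against -0.0092 for all genes. The 4 were Ect2 (0.80, FDR 6.12e-06 by edgeR), Aspm (0.31, FDR 0.00324), Smc2 (0.30, FDR 0.0105) and Kif11 (0.15, FDR 0.0463), which were higher in both fits. Kif18a, Anln, Kif23, Ccna2 and Bub1 kept their direction without a call, and Kif20b, Smc4 and Mad2l1 turned to -0.010, -0.020 and -0.080 on the log2 scale. Cdc25c (-0.38, FDR 1.47e-04 by edgeR) and Birc5 (-0.24, FDR 0.00396) were lower in both fits, whereas the falls of Plk1 (-0.10, FDR 0.180), Incenp (-0.068, FDR 0.228) and Ncapd2 (-0.14, FDR 0.0506) were no longer called. Another 7 genes became lower, among them all 4 kinetochore genes: Nuf2 (-0.34, FDR 1.21e-04 by edgeR), Ndc80 (-0.32, FDR 2.82e-04), Cenpe (-0.18, FDR 0.00490) and Cenpf (-0.17, FDR 0.0384). The others were Ncapg (-0.25, FDR 0.00487 by edgeR), Mki67 (-0.19, FDR 0.00332) and Top2a (-0.15, FDR 0.0282). After the correction the correlation of the log2 fold changes of the 42 genes with GC content was 0.054.

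**Figure D3:**
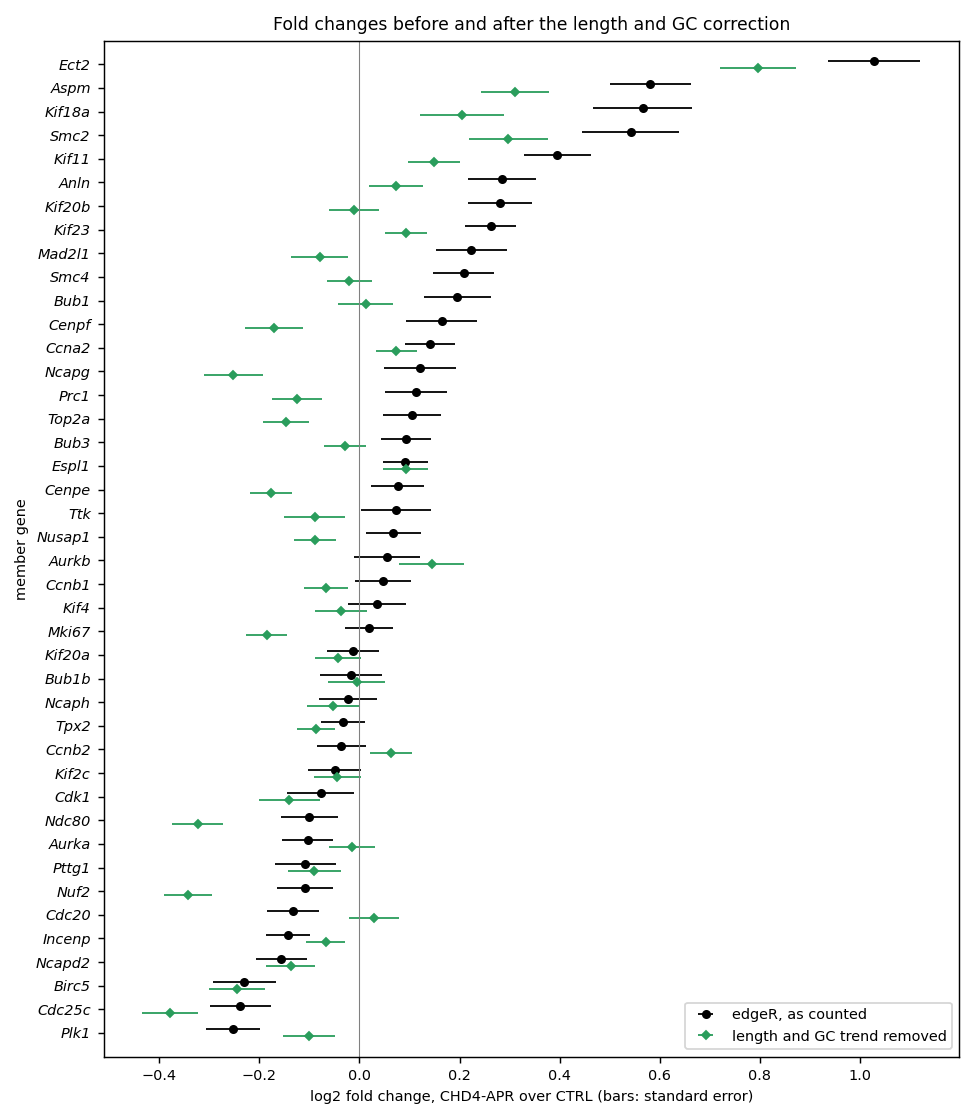
Log2 fold change (x axis, CHD4-APR over CTRL, bars are standard errors) of each of the 42 genes (y axis) as counted (black circles) and after removal of the length and GC trend (green diamonds). Most genes move to the left with the correction, while Ect2 stays far to the right at 0.80 and Cdc25c is the lowest at -0.38.

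Apart from the peptide, the 42 genes rose and fell together between the libraries of the same group. CTRL replicate 1 was the lowest CTRL library for 39 of the 42 genes, against 39.3% of all genes tested, and CTRL replicate 2 was the highest for 40, against 35.5%. In the other group CHD4-APR replicate 1 was the lowest library for 41 of the 42 genes, against 36.9% of all genes, and CHD4-APR replicate 3 the highest for 33, against 33.0%. The summed level of the 42 genes was 6440, 7235 and 6848 CPM in the CTRL libraries and 6629, 7231 and 7421 CPM in the CHD4-APR libraries, so that the groups overlapped. The median gene lay 0.090 below its group mean on the log2 scale in CTRL replicate 1 (-0.090) and 0.11 below in CHD4-APR replicate 1 (-0.11), deviations that were larger than the median difference of 0.062 between the peptides. With the length and GC trend removed, CTRL replicate 1 was still lowest for 37 of the 42 genes and CHD4-APR replicate 1 for 41. Other genes of the pathway shared the pattern: of 163 other genes of mitosis, 121 were lowest in CTRL replicate 1 and 131 in CHD4-APR replicate 1, and of 46 DNA replication genes 35 and 40. The 42 genes are thus not independent of each other, since they share these libraries. Beside this, the summed erythroid markers ranged from 71185 to 76503 CPM among the CTRL libraries and from 60653 to 64727 CPM among the CHD4-APR libraries, and their part in the pattern was not tested. Without both replicate 1 libraries, an alternative chosen after seeing the data, 18 of the 42 genes were called (31.7% of all genes), 13 higher and 5 lower (17.8% and 13.9%), and the median log2 fold change was 0.064.

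**Figure D4:**
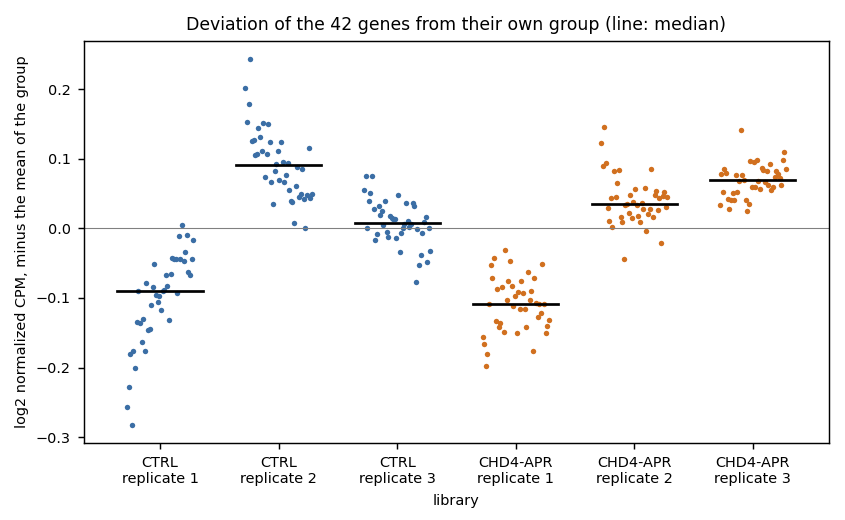
Deviation of each of the 42 genes (points) from the mean of its own group in each library (x axis), in log2 normalized CPM (y axis), with the median as a line and genes ordered within a library by fold change from left to right. Replicate 1 lies below 0 in both groups, at medians of -0.090 and -0.11, and CTRL replicate 2 and CHD4-APR replicates 2 and 3 lie mostly above it.

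Members with and without the promoter letters were also set side by side. For comparison, 20.4% of all genes were higher and 17.8% lower. Of the 28 genes with TTTGAA or TTTAAA in a window 7 were higher, 3 lower and 18 not called, with a median log2 fold change of 0.075. Of the 7 genes with a window but neither motif 3 were higher, 0 lower and 4 not called, with a median of 0.068. Of the 24 genes with CCAAT 6 were higher, 2 lower and 16 not called (median 0.084), and of the 11 without it 4 were higher, 1 lower and 6 not called (median -0.023). The difference in either split was not tested. Kif18a and Mad2l1, which rose, had neither of these nor CCAAT in their windows, and Plk1, which fell the most, had both kinds.

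Other genes of the pathway were taken from lists by function. Of 163 such genes tested 52 were higher and 30 lower (50.3% called, against 38.3% of all genes), with a median log2 fold change of 0.049. With the length and GC trend removed 23 were higher and 33 lower (12.7% and 14.2% of all genes). The 16 genes of cohesin, which holds sister chromatids together, and condensin II moved most in 1 direction. Of these genes 12 were higher and 1 lower (20.4% and 17.8% of all genes), with a median of 0.37. After the correction 7 of these were higher and 1, the cohesin ATPase Smc1a (-0.16, FDR 0.00380 by edgeR, named after its value was seen), was lower. The largest rise was that of Ncapg2, a subunit of condensin II, at 37.3, 53.1 and 46.8 CPM in the CTRL libraries and 61.6, 71.6 and 71.8 CPM in the CHD4-APR libraries (log2 fold change 0.58, FDR 1.66e-04 by edgeR), and the fall was that of another, Ncaph2 (-0.17, FDR 0.00349), which was no longer called after the correction (-0.085, FDR 0.112).

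The counts of the lists that follow stand against 20.4% of all genes higher and 17.8% lower, and after the correction against 12.7% and 14.2%. Of the 17 genes of the anaphase-promoting complex and its ubiquitin-conjugating enzymes 8 were lower and 2 higher, with a median of -0.11, and 11 were lower and 0 higher after the correction. Anapc13, a small subunit, fell most (-0.28, FDR 0.00191 by edgeR), and Cdc27, a scaffold subunit, rose most (0.35, FDR 7.13e-04) but was not called after the correction (0.085, FDR 0.228). Of 38 other kinetochore and centromere genes 7 were higher and 7 lower (36.8% called, against 38.3% of all genes), with Knl1, the platform that recruits the checkpoint, at 29.6, 43.7 and 38.8 CPM against 51.4, 62.7 and 61.3 CPM (0.64, FDR 1.61e-04 by edgeR). Cenpt, which links the NDC80 complex to chromatin, fell most (-0.36, FDR 1.03e-04). After the correction this list had 3 higher and 9 lower, with Knl1 and Cenpt still called. Of 34 other spindle and centrosome genes 11 were higher and 7 lower, and the centriole gene Sass6 rose most (0.38, FDR 3.96e-04 by edgeR). The largest fall among the called genes was that of Haus7 of the augmin complex (-0.26, FDR 0.00224), while a gene not called lay at -0.30. After the correction 2 were higher and 5 lower, and neither Sass6 (0.15, FDR 0.0541 by edgeR) nor Haus7 (-0.13, FDR 0.0999) was called. Of 15 other cytokinesis genes 7 were higher and 2 lower, where Depdc1a rose most (0.43, FDR 0.00378 by edgeR) and Cdca3 fell most (-0.23, FDR 0.00661). After the correction 3 were higher and 5 lower, and Depdc1a was not called (0.18, FDR 0.126 by edgeR). Of 21 other genes of checkpoint and anaphase control 3 were higher and 3 lower (28.6% called), with Mastl, the kinase that restrains the phosphatase opposing CDK1, at 0.49 (FDR 0.00116 by edgeR) and Mad2l1bp, which removes MAD2 from the checkpoint, at -0.27 (FDR 0.00143). After the correction 2 were higher and 2 lower, and Mad2l1bp was not called (-0.10, FDR 0.107 by edgeR).

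Of 22 regulators of late cell cycle transcription, such as the MuvB complex that binds the CHR, 10 were higher and 2 lower (54.5% called, against 38.3% of all genes), with a median of 0.17, and 6 were higher and 0 lower after the correction (12.7% and 14.2% of all genes). Lin54, the MuvB subunit that contacts the CHR, rose most, from 23.8, 28.0 and 26.5 CPM to 40.0, 39.1 and 36.4 CPM (0.56, FDR 1.15e-05 by edgeR), and the MuvB subunit Lin37 fell most (-0.27, FDR 5.31e-04) but was not called after the correction (-0.078, FDR 0.220). Among 46 DNA replication genes, the nearest group of the cell cycle, 5 were higher and 4 lower (19.6% called, against 38.3% of all genes), with a median of -0.0032, led by Orc1 (0.48, FDR 4.52e-04 by edgeR) and Gmnn (-0.27, FDR 0.00284). After the correction 3 were higher and 9 lower, with Orc1 and Gmnn still called. The difference between the lists was not tested.

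**Figure D5:**
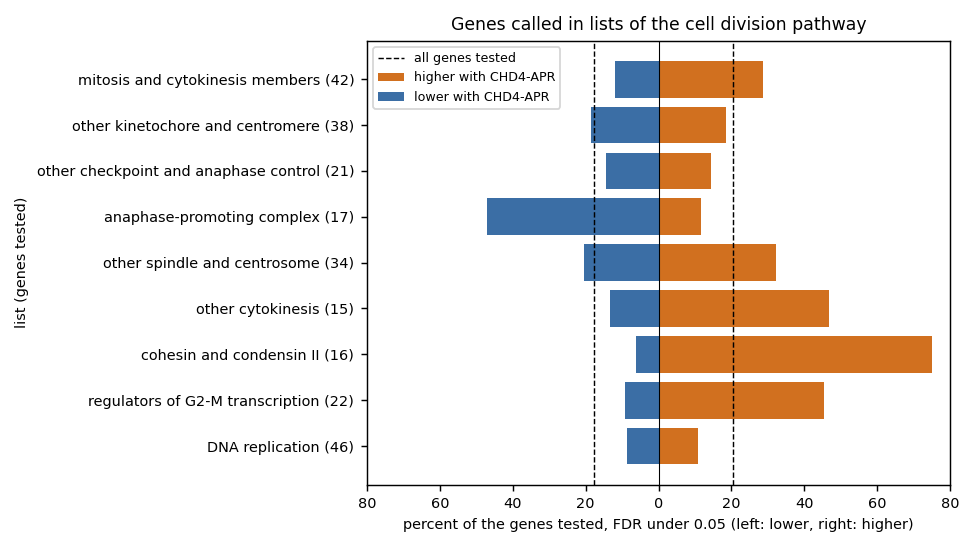
Percent of the genes tested in each list (y axis, number tested in brackets) with an FDR under 0.05, higher with the CHD4-APR peptide to the right (orange) and lower to the left (blue), with dashed lines at the 20.4% and 17.8% of all genes tested. The bar of the 42 genes passes the dashed line to the right only, and the bars of cohesin with condensin II (right) and of the anaphase-promoting complex (left) are the longest.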

How the data were processed

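Poly(A) RNA of 6 samples was sequenced with a kit that does not mark the strand. The deposited values are raw counts of reads per gene: the authors mapped reads with STAR (version 2.7.10a) and counted them with featureCounts, and how strand and multimapping reads were handled is not given in the sources used here. Samples were grouped by their labels. Names, lengths and GC content came from GENCODE M21 (GRCm38), which held 48349 of the 48709 identifiers, and 2 columns that matched no sample were not used. The test was edgeR's quasi-likelihood F-test (edgeR 4.0.16, R 4.3.3) on counts passing filterByExpr, with TMM scaling and Benjamini-Hochberg adjustment, where the standard error is the log2 fold change divided by the square root of F. The common biological coefficient of variation was 0.0518. The correction for length and GC content fitted a loess surface (span 0.5) to each library's log2 CPM. Alternatives were DESeq2 1.42.0, limma-voom (limma 3.58.1), other scalings and filters, hemoglobin genes removed, a replicate block, left-out libraries and stricter thresholds. Scripts were tested on simulated data. Values in every library are given for Cdk1, Ccnb1, Plk1, Mki67, Top2a and each called member, and for other lists the largest called rise and fall are named. Per-library values of Ncapg2, Knl1 and Lin54 were added after they were seen. The members and lists were chosen with earlier results of these data known.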

Additional observations from a re-analysis of the deposited data

How the results depend on the processing

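Of the 42 mitosis and cytokinesis genes, 17 were called (12 higher and 5 lower). DESeq2, limma-voom, other scalings and filters, and removal of hemoglobin genes left that total, the calls of the 163 other genes of mitosis and of the 46 DNA replication genes within 1.5 times and the median with the same sign. With an FDR under 0.01, 11 of the 42 genes were called (3 lower), and 5 replication genes. With an added 1.5-fold minimum 1 was called (1 higher, 0 lower), with 1 of the other mitosis genes and 0 replication genes. The length and GC correction gave 4 higher, 9 lower and a median of -0.048, and reversed Ccnb1 (-0.067), Mki67 (-0.19), Top2a (-0.15), Kif20b (-0.010), Mad2l1 (-0.080) and Smc4 (-0.020), and the cause was not tested. Together with a replicate block it gave 6 higher, 13 lower (14.6% and 16.8% of all genes), 14 replication genes and a median of -0.050, and reversed Ccnb1 (-0.067), Mki67 (-0.19), Top2a (-0.15), Kif20b (-0.010), Mad2l1 (-0.079) and Smc4 (-0.019). In that fit Cdk1 was called lower (-0.14, FDR 0.0104 by edgeR), and Plk1 (FDR 0.0399), Ncapd2 (FDR 0.00227) and Kif18a (FDR 0.0216) were called, unlike with the correction alone.

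The replicate block alone gave 19 called (13 higher, 6 lower, against 21.5% and 19.5% of all genes), 88 of the other mitosis genes and 10 replication genes, out of 5214 of all genes. The labels do not say whether the numbers pair the samples. Over all genes, same-numbered libraries had deviations from their group means correlated at 0.070, 0.055 and -0.035. For libraries with different numbers these correlations lay between -0.081 and 0.034, and with 3 libraries per group they cannot settle the pairing. With each library left out in turn, 12 to 19 of the 42 genes were called, 8 to 15 higher and 2 to 6 lower (of all genes, 29.2% to 38.7%, 16.8% to 20.6% and 12.4% to 18.1%), with 65 to 80 of the other mitosis genes and 6 to 9 replication genes, and the median lay between 0.012 and 0.12. The count lower fell to 3 when CTRL replicate 3 was left out and to 2 when CHD4-APR replicate 1 was. Cdk1 lay between -0.12 and 0.0071 and Mki67 between -0.014 and 0.057, changing sign. Of the 21 genes given with values in every library, Ect2, Aspm, Smc2, Kif11 and Cdc25c kept their direction and side of the threshold in every alternative fit, and upper quartile scaling ended the call of Ccna2 (0.12).

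Every one of the 42 genes had at least 470 reads in every library. With 3 libraries per group, standard errors lay between 0.043 and 0.098 on the log2 scale.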
